A study of Mus musculus with 6 samples.

Results

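The 8 genes described here encode the auxiliary subunits of voltage-gated calcium channels, the α2δ subunits (*Cacna2d1*, *Cacna2d2*, *Cacna2d3* and *Cacna2d4*) and the β subunits (*Cacnb1*, *Cacnb2*, *Cacnb3* and *Cacnb4*). They were chosen by name as the complete α2δ and β families and are 8 of the 21744 genes in the table. All 8 passed the filter on low values, as did 15200 genes in all. RNA-seq was performed on retinas of 3 control mice and 3 mice labelled *Lhx4* null at postnatal day 7, each library made from the retinas of 1 mouse on a mixed background of the C57BL/6J and 129S6 strains. The study made its null mice with an *Lhx4* tdTomato knock-in allele over an *Lhx4* loxP allele and the *Six3-Cre* driver, which acts in the retina. Other tissues of such mice carry the knock-in allele as well. The alleles that the control mice of these libraries carried are not given in the sources used here. The comparison asks whether the auxiliary subunits differ between control retinas and retinas labelled as null for *Lhx4*, which encodes a LIM-homeodomain factor of bipolar cells, the interneurons that carry photoreceptor signals to the inner retina.

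A high-voltage-activated calcium channel is built around a pore-forming α1 subunit. The β subunit binds the α1 subunit inside the cell, brings it to the membrane and shifts its gating. The α2δ subunit is a glycoprotein on the outer face that raises the number of channels at the surface and takes part in synapse formation. T-type pores can conduct without either. In photoreceptor terminals, the channel made of Cav1.4 (*Cacna1f*), β2 and α2δ4 sits at the ribbon synapse, and loss of any of the 3 impairs transmission from rods and cones.

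Values are FPKM, fragments scaled to transcript length and to the mapped fragments of a library, so that levels of different genes can be set side by side. The table gives no fragment totals, but the steps between its lowest values gave relative depths of 76.9% to 100% of the deepest library in the control group and 46.7% to 65.9% in the null group. All control libraries were thus deeper, and the part of depth in the results was not tested. The gene-level value of the targeted gene itself was not lower under the null label. *Lhx4* (ENSMUSG00000026468) stood at 20.9, 23.8 and 19.1 FPKM among the controls, compared with 31.2, 30.3 and 29.0 FPKM among libraries with the null label (log2 difference 0.51, SE 0.091, limma adjusted p = 0.098). A gene-level value covers all exons and cannot show whether a part was deleted, so the second group is called null-labelled libraries. Rod genes were abundant in every library, and the summed level of 14 bipolar genes was 568 to 751 FPKM among the controls, compared with 354 to 398 FPKM among null-labelled libraries.

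No auxiliary subunit gene passed the test between the groups. Of the 8, 0 passed an adjusted p under 0.05 in limma, against 0.224% of all genes tested (34 of 15200), and 0 passed an unadjusted p under 0.05, against 8.15% of all genes tested. Among null-labelled libraries, *Cacnb3* had all 3 values above all 3 control values, which 8.10% of all genes tested did. None of the 8 had all 3 below, which 6.13% of all genes did. The median log2 difference, null minus control, was -0.065 for the α2δ genes and 0.097 for the β genes, and 0.011 over all genes tested. A difference in FPKM of bulk retina cannot tell fewer cells of a type from less RNA per cell.

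**Figure D1:**
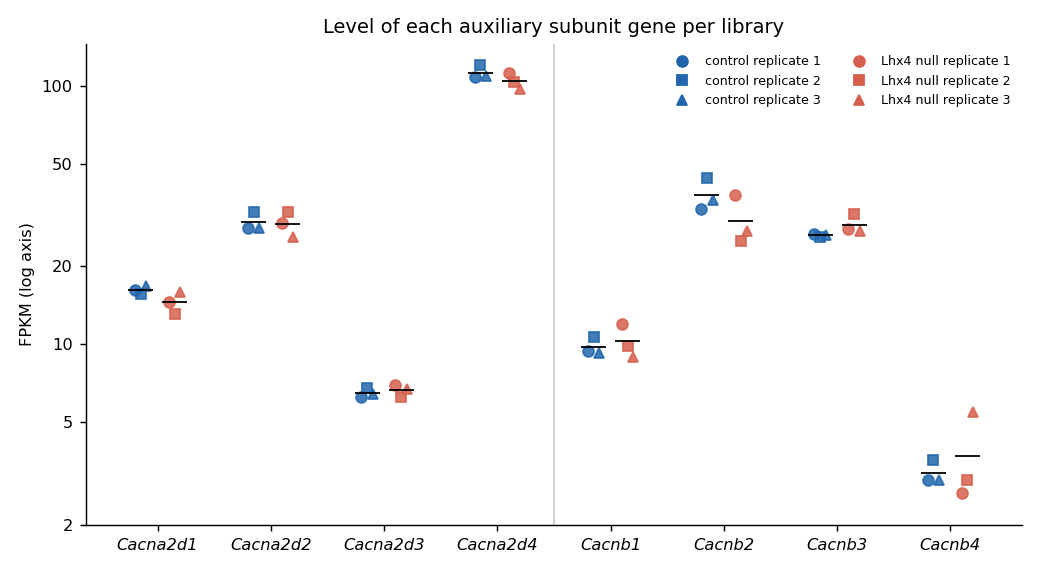
FPKM (log axis) of the 8 genes in each of the 6 libraries. Blue points are control libraries, red points are null-labelled libraries, the shape gives the replicate number, and bars are group means (n = 3). The groups overlap in 7 genes, *Cacnb3* is the exception, and 1 library stands high in *Cacnb4*.

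The precision of this comparison is given by the 95% confidence intervals of limma. Written as the fold of null-labelled libraries over control on the FPKM + 0.1 scale, the interval ran from 0.816 to 1.05 for *Cacna2d4* and from 0.969 to 1.24 for *Cacnb3*. The widest interval was that of *Cacnb4*, from 0.745 to 1.64. A 2-fold change in either direction lay outside the interval of each of the 8 genes. Smaller changes lay inside them, and a p above the threshold does not show that the levels were equal.

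**Figure D2:**
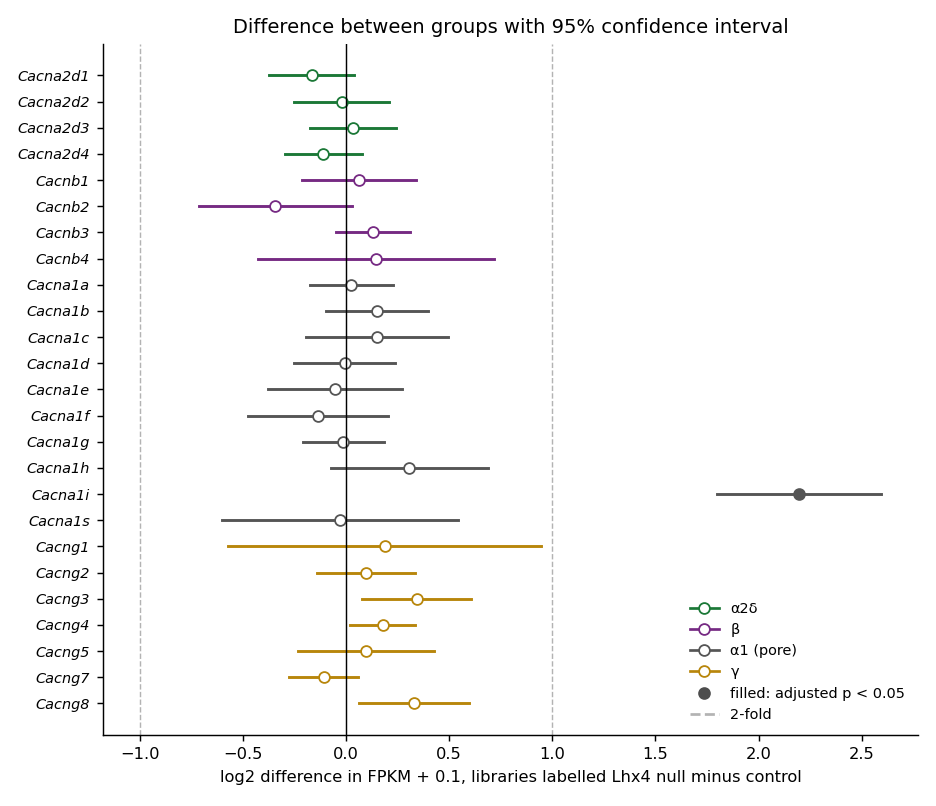
Log2 difference in FPKM + 0.1, null-labelled libraries minus control, with the 95% confidence interval from limma, for α2δ, β, α1 and γ subunit genes. Dashed lines mark 2-fold and the filled point an adjusted p under 0.05. All 8 auxiliary subunit intervals cross 0 and stay within 2-fold, and *Cacna1i* alone of the 25 genes drawn lies beyond it, at 2.20.

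Each gene has 1 FPKM value, which pools transcripts from every start. The RefSeq promoter windows (GRCm38.p6, 250 bases before a start to 50 after it) listed 1 window for each of *Cacna2d1*, *Cacna2d2* and *Cacna2d3*, and 2 or 3 for each β gene. *Cacna2d4* was not among them. The windows of *Cacnb2* and *Cacnb4* are shown because these were the genes with the largest spread between libraries, and because transcripts from their different starts cannot be separated in these values. The upstream and middle windows of *Cacnb4* overlap at their ends. Capitals mark TAAT on either strand (ATTA on the strand printed), the core letters bound by many homeodomain proteins, with overlapping matches each counted.

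*Cacnb2* upstream start, chr2:14604056-14604355, plus strand: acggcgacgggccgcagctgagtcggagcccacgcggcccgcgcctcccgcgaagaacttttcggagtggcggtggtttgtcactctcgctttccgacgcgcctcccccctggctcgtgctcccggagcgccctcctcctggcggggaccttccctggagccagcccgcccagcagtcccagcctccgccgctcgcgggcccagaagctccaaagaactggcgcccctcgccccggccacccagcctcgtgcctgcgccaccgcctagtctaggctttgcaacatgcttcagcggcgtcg
*Cacnb2* downstream start, chr2:14823842-14824141, plus strand: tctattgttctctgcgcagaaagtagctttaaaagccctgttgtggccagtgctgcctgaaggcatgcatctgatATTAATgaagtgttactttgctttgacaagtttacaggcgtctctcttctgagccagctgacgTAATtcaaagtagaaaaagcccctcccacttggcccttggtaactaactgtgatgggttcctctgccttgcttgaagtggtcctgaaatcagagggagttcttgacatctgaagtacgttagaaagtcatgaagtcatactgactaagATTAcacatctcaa
*Cacnb4* upstream start, chr2:52676094-52676393, minus strand: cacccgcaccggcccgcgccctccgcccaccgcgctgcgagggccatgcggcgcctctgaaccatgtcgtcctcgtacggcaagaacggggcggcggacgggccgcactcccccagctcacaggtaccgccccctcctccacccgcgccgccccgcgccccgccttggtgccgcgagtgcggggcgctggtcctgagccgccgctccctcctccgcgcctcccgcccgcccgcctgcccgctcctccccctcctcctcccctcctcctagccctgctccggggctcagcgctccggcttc
*Cacnb4* middle start, chr2:52675810-52676109, minus strand: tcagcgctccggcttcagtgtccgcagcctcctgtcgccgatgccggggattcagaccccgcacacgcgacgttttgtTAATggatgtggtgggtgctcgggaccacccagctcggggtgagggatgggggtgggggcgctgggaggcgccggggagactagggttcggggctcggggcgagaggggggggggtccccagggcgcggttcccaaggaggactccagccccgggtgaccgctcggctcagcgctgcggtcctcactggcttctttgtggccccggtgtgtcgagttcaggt
*Cacnb4* downstream start, chr2:52558562-52558861, minus strand: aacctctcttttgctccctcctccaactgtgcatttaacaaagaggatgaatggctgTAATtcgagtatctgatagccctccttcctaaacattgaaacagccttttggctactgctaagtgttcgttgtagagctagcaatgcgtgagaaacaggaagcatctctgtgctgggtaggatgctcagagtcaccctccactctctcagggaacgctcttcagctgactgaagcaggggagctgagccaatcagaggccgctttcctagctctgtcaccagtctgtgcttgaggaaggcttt

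In both genes the upstream window was rich in G and C, with 71.7% for *Cacnb2* and 78.3% for *Cacnb4*, and held 0 matches. The middle window of *Cacnb4* was rich in G and C as well, at 69.7%, and held 1 match. The downstream windows held 44.0% and 49.7% G and C, near the median of 52.7% over all 32851 windows of the table. The *Cacnb2* downstream window held 4 matches and the downstream window of *Cacnb4* held 1. In all, 4 of the 12 windows of 7 genes held TAAT, and 58.0% of all windows did. A match is a description of the letters and not a binding site.

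The α2δ family was led by *Cacna2d4* (ENSMUSG00000041460, chr6:119236526-119352407, plus strand), which encodes α2δ4 of the photoreceptor channel. Its level was 108, 119.9 and 109 FPKM among control replicates 1, 2 and 3, compared with 112, 103 and 96.8 FPKM among null-labelled libraries. Null replicate 1 lay among the controls and the other two lay below them. The group means were 112 ± 6.78 and 104 ± 7.57 FPKM (SD, n = 3), and the log2 difference was -0.11 (SE 0.081, limma adjusted p = 0.74).

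*Cacna2d2* (ENSMUSG00000010066, chr9:107399612-107529343, plus strand) encodes α2δ2, known from cerebellar Purkinje cells and from the *ducky* mouse. It read 28.2, 32.5 and 28.2 FPKM among the controls, compared with 29.4, 32.4 and 26.0 FPKM among null-labelled libraries. Replicate 2 was the highest of each group, and the ranges of the groups overlapped. The log2 difference was -0.021 (SE 0.10, limma adjusted p = 0.98).

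*Cacna2d1* (ENSMUSG00000040118, chr5:15934691-16374511, plus strand) encodes α2δ1, which binds gabapentin and thrombospondins. It stood at 16.2, 15.7 and 16.9 FPKM among the controls, compared with 14.6, 13.1 and 15.9 FPKM among null-labelled libraries. Only null replicate 3 reached the control range. The log2 difference was -0.17 (SE 0.089), with an unadjusted p of 0.099 and an adjusted p of 0.68 from limma, and without null replicate 3 it was -0.23 (unadjusted p = 0.030, adjusted p = 0.40).

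*Cacna2d3* (ENSMUSG00000021991, chr14:28904943-29721864, minus strand), which encodes the α2δ3 subunit, varied least of the 8, by 1.12-fold between its highest and its lowest library. Its values were 6.27, 6.79 and 6.39 FPKM among the controls, compared with 6.98, 6.23 and 6.70 FPKM among null-labelled libraries. The highest and the lowest value both came from the null group, and the log2 difference was 0.033 (SE 0.091, limma adjusted p = 0.95).

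*Cacna2d3* spans 816922 bases, the longest of the 8 genes. Inside it, on the opposite strand and sharing no exon bases with it in GENCODE vM21, lies *Lrtm1* (chr14:29018208-29033645), which encodes a leucine-rich repeat membrane protein. *Lrtm1* stood at 1.36, 2.50 and 1.21 FPKM among the controls, compared with 0.974, 0.453 and 0.642 FPKM among null-labelled libraries. All null values lay below all control values, with a log2 difference of -1.16 (SE 0.32, limma unadjusted p = 0.0065, adjusted p = 0.39). The study, testing with Cufflinks at more than 2-fold and a p under 0.05, lists *Lrtm1* among bipolar cell genes significantly lowered at this age. The log2 ratio of *Lrtm1* to its host gene was -1.95 ± 0.479 in the control libraries and -3.14 ± 0.400 among null-labelled libraries (SD, n = 3 each). The two-sided exact permutation p was 0.1, the lowest possible with 3 against 3. *Lrtm1* was chosen after its values, already without overlap, were seen, so this p is a description only. The other gene nested in a member and passing the filter, *Lrtm2* inside *Cacna2d4*, read 10.5, 10.7 and 9.995 FPKM among the controls, compared with 10.8, 10.7 and 10.7 FPKM in the other group.

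Among the β genes, *Cacnb2* (ENSMUSG00000057914, chr2:14603088-14987908, plus strand) had the highest control level and the smallest p of the 8 genes. It encodes β2, the partner of Cav1.4 in photoreceptors and of Cav1.2 in heart. It stood at 33.3, 44.0 and 36.1 FPKM among the controls, compared with 37.7, 25.0 and 27.4 FPKM among null-labelled libraries. Null replicates 2 and 3 lay below every control library, while null replicate 1 was above 2 of the 3 controls. The log2 difference was -0.34 (SE 0.16), with an unadjusted p of 0.065 and an adjusted p of 0.64 from limma. This value rested on single libraries. It was -0.52 without null replicate 1 (unadjusted p = 0.0036, adjusted p = 0.17), -0.43 without control replicate 1 (unadjusted p = 0.042, adjusted p = 0.96), -0.23 without control replicate 2 and -0.22 without null replicate 2.

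*Cacnb3* (ENSMUSG00000003352, chr15:98630840-98644529, plus strand) encodes β3, a common partner of N-type channels in neurons. Its control values were the tightest of the 8 genes, at 26.7, 26.1 and 26.4 FPKM. Null-labelled libraries stood at 27.8, 31.8 and 27.3 FPKM. All 3 lay above the controls, and replicate 2 was the highest. The log2 difference was 0.13 (SE 0.078, limma unadjusted p = 0.13, adjusted p = 0.69).

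*Cacnb1* (ENSMUSG00000020882, chr11:98001508-98023034, minus strand) encodes β1, the subunit of the skeletal muscle channel that neurons use as well. It read 9.45, 10.6 and 9.24 FPKM among the controls, compared with 12.0, 9.86 and 8.96 FPKM among null-labelled libraries. The null group held both the highest and the lowest value, and the log2 difference was 0.063 (SE 0.12, limma adjusted p = 0.92).

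*Cacnb4* (ENSMUSG00000017412, chr2:52428320-52676831, minus strand) encodes β4, which is mutated in the *lethargic* mouse. It was the lowest of the 8, at 2.98, 3.57 and 2.99 FPKM among the controls, compared with 2.65, 2.99 and 5.48 FPKM among null-labelled libraries. Null replicate 3 stood apart from the 5 other libraries. The log2 difference was 0.15 (SE 0.25, limma adjusted p = 0.91), and it was -0.17 without null replicate 3. The same library had the highest summed level of the cone genes (680 FPKM), of the microglia genes (38.6 FPKM) and of 6 pigment cell genes (32.2 FPKM). The pigment cell sum was 8.98 to 16.7 FPKM among the controls and 18.3 to 32.2 FPKM among null-labelled libraries, without overlap. The median log2 difference of the 6 genes was 0.86. Null replicate 1, the lowest library in *Cacnb4*, had a pigment cell sum of 18.3 FPKM, above every control. Of *Cacnb4*'s annotated exon bases, 16.0% overlap another gene, A430018G15Rik, and the overlap is 7.32% for *Cacnb2*, 1.77% for *Cacnb1*, 1.03% for *Cacna2d2* and 0% for the other 4 genes. Whether the authors counted by strand is not given in the sources used here. The part of the pigment cell, cone or microglia genes or of the overlap in the value of null replicate 3 was not tested.

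The order of levels was the same in both groups, from *Cacna2d4* through *Cacnb2*, *Cacna2d2*, *Cacnb3*, *Cacna2d1*, *Cacnb1* and *Cacna2d3* to *Cacnb4*. In the control libraries no neighbours in that order overlapped. *Cacna2d4* exceeded *Cacnb2* by 2.97-fold, and the smallest step was 1.12-fold, from *Cacna2d2* to *Cacnb3*. Among null-labelled libraries, *Cacnb2*, *Cacna2d2* and *Cacnb3* had means of 30.0, 29.3 and 29.0 FPKM with overlapping ranges, and these 3 could not be ordered. The remaining steps were clear of overlap there as well.

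The make-up of the α2δ family was similar in all 6 libraries. *Cacna2d4* gave 68.1% ± 0.380 of the summed α2δ FPKM among the controls, compared with 67.3% ± 1.21 among null-labelled libraries (SD, n = 3), and *Cacna2d2* gave 18.0% ± 0.498 and 18.9% ± 1.72. The β family varied more. *Cacnb2* gave 46.0%, 52.2% and 48.3% of the summed β FPKM among the controls, compared with 47.0%, 35.9% and 39.7% among null-labelled libraries. *Cacnb3* gave 36.9%, 30.9% and 35.3% in the control libraries and 34.7%, 45.7% and 39.5% in the others. In null replicate 2, *Cacnb3* was thus the leading β gene, in null replicate 3 both were nearly level, and in null replicate 1 the shares were those of a control library. These shares are descriptions and were not tested.

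**Figure D3:**
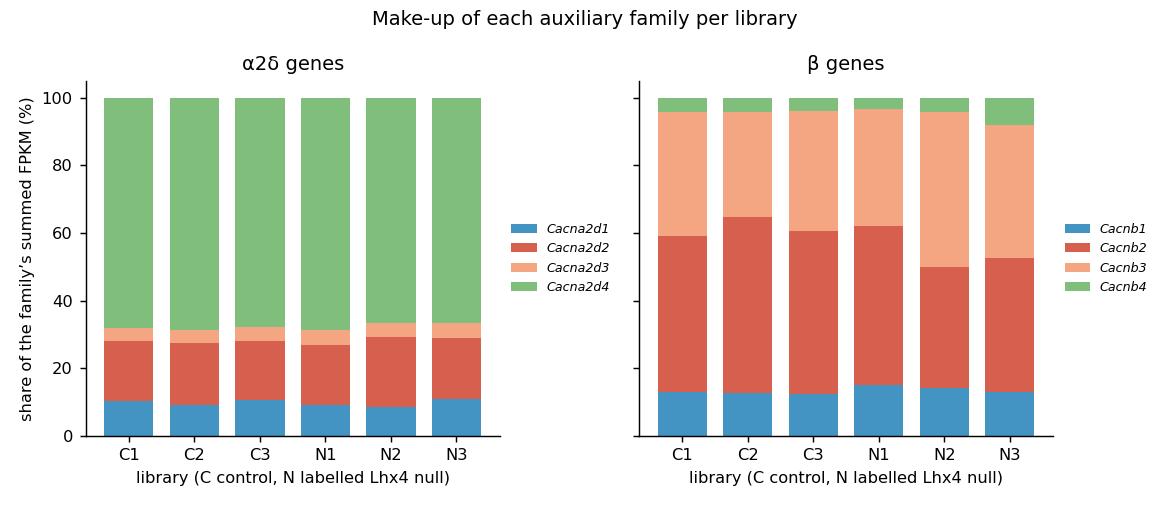
Share (%) of each gene in the summed FPKM of its family, for the 4 α2δ genes and the 4 β genes, with 1 bar per library (C control, N labelled *Lhx4* null). *Cacna2d4* fills 66.6% to 68.7% of every α2δ bar, while the *Cacnb2* share of the β bars runs from 35.9% in null replicate 2 to 52.2% in control replicate 2.

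Both family totals overlapped between the groups. The summed α2δ level was 158, 175 and 160.1 FPKM among the controls, compared with 163, 155 and 145 FPKM among null-labelled libraries. The summed β level was 72.4, 84.3 and 74.7 FPKM, and 80.2, 69.7 and 69.2 FPKM. The ratio of summed α2δ to summed β was 2.14 ± 0.0567 and 2.12 ± 0.0976 (SD, n = 3). Against the 7 high-voltage-activated pore genes, whose channels take up β, summed β stood at a ratio of 0.799 ± 0.0524 in the control libraries and 0.773 ± 0.0166 in the others.

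Within each family the genes with the highest and the lowest difference were set against each other, as a description. The log2 ratio of *Cacna2d3* to *Cacna2d1* was -1.31 ± 0.101 in the control libraries and -1.12 ± 0.102 among null-labelled libraries (SD, n = 3). The log2 ratio of *Cacnb4* to *Cacnb2* was -3.52 ± 0.0753 and -3.04 ± 0.740. The control libraries held this β ratio almost fixed, and the null libraries spread over it on both sides, at -3.78, -3.02 and -2.30.

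The library pattern of *Cacnb2* was close to that of 1 rod gene, *Cnga1*, and shared its order or its extremes with some other rod and bipolar genes. Over the 6 libraries and among 12484 other genes averaging 1 FPKM or more, the 5 nearest to it by root-mean-square difference of centred log2 values were *Gpr176* (0.033), *Trim36* (0.036), *Ric8b* (0.041), *Cnga1* (0.043) and *Tdrd7* (0.046). *Cnga1*, which encodes the α subunit of the rod cyclic nucleotide-gated channel, stood at 60.4, 79.9 and 64.8 FPKM among the controls, compared with 70.4, 42.3 and 49.5 FPKM among null-labelled libraries. *Gnat1*, which encodes the α subunit of rod transducin, read 29.2, 84.3 and 35.8 FPKM, and 56.1, 21.2 and 20.05 FPKM. The other genes of these 5 are on none of the marker lists. *Cnga1* and *Gnat1* repeat the order seen in *Cacnb2*, *Gnat1* over a wider range. Control replicate 2 was the highest, null replicate 1 next, and null replicates 2 and 3 lowest. The same 2 libraries were the highest in 4 of the 7 rod genes examined, and null replicates 2 and 3 lay below every control in 5 of the 7. Over all genes tested these shares were 12.7% and 14.2%. Both patterns were read off the values of *Cacnb2*, and *Cnga1* had already been picked as near to it. Genes of a list vary together in the same 6 libraries, so these counts are descriptions and not a test. The early rod factors *Nrl* and *Nr2e3* showed neither. *Nrl* lay 0.26 from *Cacnb2* by root-mean-square difference, and *Nr2e3* was highest in null replicate 2, at 829 FPKM. Bipolar genes shared the extremes of *Cacnb2*. Control replicate 2 was the highest library in 12 of 14 and null replicate 2 the lowest in 10 of 14, compared with 5 of 7 and 5 of 7 rod genes. Of the 14, 11 had all null values below all control values, which by itself puts the highest library among the controls and the lowest among the null-labelled. No share over all genes was taken for these extremes. Null replicates 2 and 3 lay below every control in 13 of the 14 bipolar genes, but control replicate 2 and null replicate 1 were the highest pair in 1 of the 14.

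The summed level of the 7 rod genes was 2535 to 2758 FPKM among the controls, compared with 2194 to 2649 FPKM among null-labelled libraries, with a median log2 difference of -0.33, and 0 of the 7 passed an adjusted or an unadjusted p under 0.05 in limma. Among genes of the photoreceptor channel and its regulators, *Cacna1f* and *Cabp4* had the same highest and lowest libraries as *Cacnb2*. *Cacna2d4* shared the highest, but its lowest was null replicate 3. *Cacna1f* stood at 46.9, 62.6 and 43.6 FPKM among the controls, compared with 53.5, 42.4 and 42.6 FPKM in the others. *Cabp4*, which encodes a calcium-binding regulator of Cav1.4, read 15.4, 22.5 and 16.7 FPKM, and 19.3, 7.63 and 10.2 FPKM. *Cacna1f* and *Cabp4* were picked out here after their values were seen, and their highest and lowest libraries are those of most bipolar genes too. The part of the rod or the bipolar pattern in the *Cacnb2* difference was not tested.

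**Figure D4:**
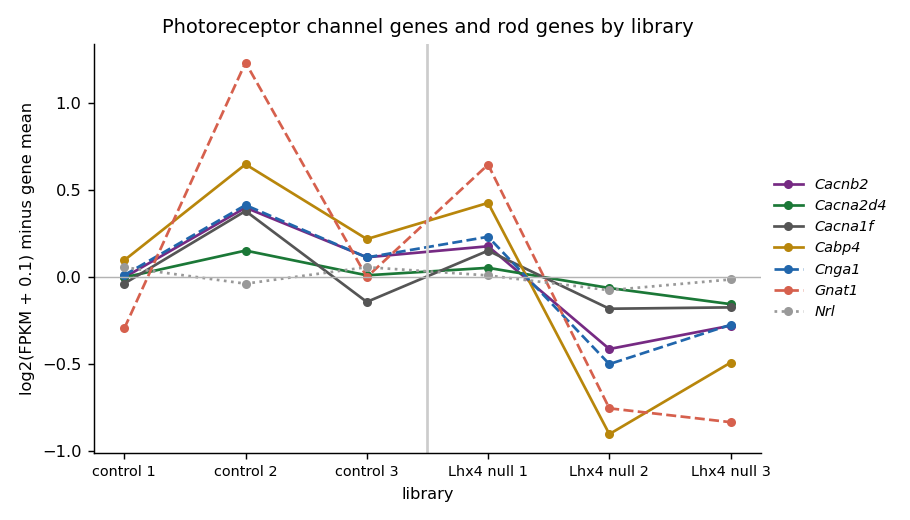
Log2(FPKM + 0.1) of each gene minus its mean over the 6 libraries, with 1 line per gene. *Cacnb2*, *Cacna2d4*, *Cacna1f* and *Cabp4* are solid, the rod genes *Cnga1* and *Gnat1* dashed and *Nrl* dotted. The other rod genes are not drawn, among them *Nr2e3*, which was highest in null replicate 2. The solid and dashed genes are all highest in control replicate 2 and next highest in null replicate 1, while *Nrl* stays near 0. By root-mean-square difference, *Cacnb2* lay 0.15 from *Cacna1f* and 0.19 from *Cacna2d4*, against 0.043 from *Cnga1*. *Cacna2d4* lay nearer to *Nrl* (0.10) than to *Cacnb2*.

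The pore genes were measured as the channels that these subunits serve. Of 10 α1 genes, 1 rose and 0 fell at an adjusted p under 0.05. *Cacna1i*, which encodes the T-type pore Cav3.3, stood at 3.85, 4.27 and 3.32 FPKM among the controls, compared with 23.3, 14.9 and 16.2 FPKM among null-labelled libraries (log2 difference 2.20, SE 0.17, limma adjusted p = 0.0020). With no filter on low values its adjusted p was 0.15, and no gene of the table passed. The other T-type genes did not pass. *Cacna1h* read 52.5, 61.3 and 46.7 FPKM, and 56.7, 85.8 and 58.5 FPKM (log2 difference 0.31, limma adjusted p = 0.68), and *Cacna1g* had group means of 40.8 ± 4.32 and 40.3 ± 1.31 FPKM (SD, n = 3).

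The 7 high-voltage-activated pore genes lay between a log2 difference of -0.13 for *Cacna1f* and 0.15 for *Cacna1b*, and none passed an unadjusted p under 0.05. *Cacna1a* (P/Q-type) and *Cacna1b* (N-type) had control means of 16.6 FPKM each, with 16.9 and 18.4 FPKM in the other group. Of the L-type genes besides *Cacna1f*, *Cacna1d* had means of 8.22 and 8.19 FPKM and *Cacna1c* had 2.25 and 2.51 FPKM, while the skeletal muscle pore *Cacna1s* stayed under 1 FPKM in every library, at means of 0.392 and 0.370 FPKM. *Cacna1e* (R-type) had means of 1.96 and 1.89 FPKM.

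Of the 8 γ genes, most of which encode AMPA receptor auxiliary proteins, 7 were tested. None passed the adjusted p. An unadjusted p under 0.05 was found for 3, all with higher values among null-labelled libraries, and for 8.15% of all genes tested, in either direction. The list was chosen with earlier results known, so this count is a description. The median log2 difference of the 7 was 0.18. *Cacng8* read 1.82, 1.84 and 1.84 FPKM among the controls, compared with 2.38, 2.27 and 2.33 FPKM in the others (log2 difference 0.33, unadjusted p = 0.021, limma adjusted p = 0.54). *Cacng3* read 11.2, 13.8 and 11.4 FPKM, and 16.9, 15.7 and 13.5 FPKM (log2 difference 0.34, unadjusted p = 0.017, limma adjusted p = 0.51), with overlap between the groups.

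Of 27 genes for channel partners, among them calmodulins, calcium-binding proteins, RIM and bassoon scaffolds and thrombospondins, 26 were tested and 0 passed the adjusted p in limma. Their median log2 difference was 0.041, and 2 had an unadjusted p under 0.05, against 8.15% of all genes tested. *Stac3*, an adaptor of L-type channels, read 7.50, 6.35 and 8.27 FPKM among the controls, compared with 8.28, 10.8 and 8.73 FPKM in the others (log2 difference 0.33, unadjusted p = 0.041, limma adjusted p = 0.60). *Lrp1*, an endocytic receptor that binds α2δ, read 21.9, 30.2 and 24.7 FPKM, and 32.6, 35.3 and 27.3 FPKM (log2 difference 0.31, unadjusted p = 0.048, limma adjusted p = 0.61).

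The cell type lists place these values in the tissue. Of 14 bipolar genes, 7 fell and 0 rose at an adjusted p under 0.05, with a median log2 difference of -1.36, in the same libraries in which none of the 8 auxiliary genes passed. Of 8 cone genes 1 rose and 0 fell at the adjusted p, while 3 had higher and 2 had lower values at an unadjusted p under 0.05. Of all 15200 genes tested, 699 had higher and 540 had lower values at that unadjusted p. In the lists for amacrine, horizontal, ganglion, Müller glia, microglia, endothelial, pigment, lens and skeletal muscle cells, 0 genes passed the adjusted p. Summed amacrine genes were 423 to 455 FPKM among the controls, compared with 466 to 521 FPKM among null-labelled libraries, and summed Müller glia genes were 600.2 to 660 FPKM and 720 to 751 FPKM. Summed lens genes, from 0.167 to 16.5 FPKM, were highest in control replicate 2 and null replicate 2.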

How the data were processed

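The authors mapped 150 bp paired-end reads with TopHat2 and estimated expression with Cufflinks against GRCm38, per the labels and the methods, and deposited gene-level FPKM. Versions, the annotation and strand use are not given in the sources used here. Groups and replicate numbers came from the sample titles, and 0 columns were unused. Log2(FPKM + 0.1) of the 15200 genes averaging 0.1 FPKM or more was fitted with limma 3.58.1 in R 4.3.3 (lmFit, eBayes with trend), libraries labelled *Lhx4* null minus control, without a block, with Benjamini-Hochberg adjustment over all genes tested. Tests are two-sided, and the pseudocount understates changes of low genes. For the 6 symbols that occur more than once, the gene with the higher mean was taken. Relative depth came from the most frequent ratios of FPKM between libraries among 2154 genes under 0.1 FPKM in every library. The fit and the depth were tested on simulated data. Positions are from GENCODE vM21 (GRCm38) and promoter windows from RefSeq (GRCm38.p6). Plots used matplotlib 3.10.9 in Python 3.11.15.

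The members and lists were chosen with earlier results of these data known. Named genes are the 8 members, the 10 α1 genes, the 2 γ and 2 partner genes with the smallest p, *Lhx4*, the 5 genes nearest to *Cacnb2*, and genes of the marker lists. *Lrtm1*, *Lrtm2* and *Cabp4* were chosen after their values were seen. Alternatives changed the pseudocount, filter, scaling, trend and block and left out each library in turn. Of the marker lists, 1 gene is not reported here.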

Additional observations from a re-analysis of the deposited data

How the results depend on the processing

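No auxiliary subunit gene passed an adjusted p under 0.05 in limma in any of the 14 alternative settings, and the smallest adjusted p was 0.17, for *Cacnb2* without null replicate 1. *Cacna2d1*, *Cacna2d4*, *Cacnb2* and *Cacnb3* kept their direction in all 14. With 1 library left out in turn, the log2 difference of *Cacna2d2* ran from -0.098 to 0.062, of *Cacna2d3* from -0.0039 to 0.077, of *Cacnb1* from -0.053 to 0.15 and of *Cacnb4* from -0.17 to 0.35. The pore genes *Cacna1a* (-0.041 to 0.070), *Cacna1d* (-0.077 to 0.069), *Cacna1e* (-0.12 to 0.031), *Cacna1f* (-0.24 to 0.022), *Cacna1g* (-0.059 to 0.072) and *Cacna1s* (-0.16 to 0.20) changed sign in the same way, each from a small difference. *Cacna1s* gave no value where a mean of 1 FPKM was required.

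Over all genes, the 34 calls became 15 with the replicate block, 15 to 31 with 1 library left out (15 without null replicate 3, 16 without control replicate 1, 17 without control replicate 3 or null replicate 2, and 20 without control replicate 2), and 0 with no filter on low values. In that last setting 21744 genes were tested, and *Cacna1i* kept its difference of 2.20 with an adjusted p of 0.15, so that 0 pathway genes passed. The cause was not tested. Same-numbered libraries of the 2 groups deviated from their group means with correlations of -0.18, -0.047 and 0.19 across genes, so the numbers were not taken to pair the libraries, and no call on an auxiliary subunit or pore gene changed under the block. At the levels of these genes (2 to 150 FPKM) the median standard error of a log2 difference was 0.10 over 11042 genes, and the intervals of the single genes set what could be resolved.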
